A study of Mus musculus with 10 samples.

Results

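The genes described here are 39 genes of the endoplasmic reticulum (ER), chosen by name: chaperones, disulfide isomerases, the sensors of the unfolded protein response, ER-associated degradation factors, and subunits of the translocon and of signal peptidase. Their mRNA was measured in mouse splenic B cells on 10 oligonucleotide arrays. Of the 39 genes, 38 had a probe set assigned to their symbol alone, and all 38 passed the filter on low signals and were among the 17204 genes tested. Sec61g, the small subunit of the translocon, was matched only by a probe set shared with other symbols and was not analysed here.

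Naive B cells (n = 4) came from the spleens of unimmunized Balb/c mice, for which the labels name no transgene. Germinal centre (GC) B cells came from mice of Balb/c background with a transgenic immunoglobulin heavy chain and deleted JH segments at their own heavy chain locus, either VH186.2-Tg JH KO, called B1-8 (n = 3), or V23-Tg JH KO, called V23 (n = 3). These mice received 50 µg of NP-CGG, a hapten on a carrier protein, in alum intraperitoneally, and λ+ PNA+ B220+ cells were sorted after 14 days. B1-8 and V23 are known from earlier work to give λ+ B cells that bind NP with higher and lower affinity. The lines carry different heavy chain transgenes, so in their comparison affinity cannot be told apart from other differences between the lines. Ages are not given. Naive and GC cells differed in immunization, transgene, JH deletion and sorting stain, and these cannot be told apart. Nothing in the labels says that replicates were separate animals, so the p-values may measure only the spread between these samples. In a bulk sample, fewer cells that express a gene and less RNA per cell cannot be told apart.

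Proteins bound for the membrane or for secretion enter the ER through the Sec61 channel, lose their signal peptide, and fold with the help of chaperones and disulfide isomerases. Chains that fail to fold are sent back to the cytosol for degradation. When unfolded chains accumulate, 3 sensors in the ER membrane, IRE1α (gene Ern1), ATF6 and PERK (gene Eif2ak3), start the unfolded protein response. IRE1α activates XBP1 by splicing its mRNA, and XBP1 and ATF6 induce many of the chaperone genes. B cells are known to expand this system when they become antibody-secreting plasma cells.

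The promoters of these genes are shown first because the ER stress response element (ERSE) is the sequence through which ATF6 and XBP1 are known to act, and it occurs in genes with different calls between GC and naive cells. ERSE was searched as CCAAT and CCACG with 9 bases of any kind between them, the related ERSE-II as ATTGG and CCACG with 1 base between them, and the UPRE as TGACGTGG. All were searched without mismatch on both strands, in RefSeq promoter windows of GRCm38.p6 from 250 bases before to 50 bases after the transcript start. Windows of 30 of the 39 genes were used (31 promoters). ERSE occurred in 9 of these 31 promoters (29%), against 39 of all 32851 promoters (0.119%), which include them. ERSE-II occurred in 2 (6.45%), Herpud1 and Dnajb11, against 12 of all promoters (0.0365%), and the UPRE letters in 0, against 222 (0.676%). No promoter of these genes held more than 1 of the 3 motifs. The genes were chosen by name for ER folding and its stress response, so their excess of ERSE and ERSE-II is not an independent result. The stretches below run 5′ to 3′ on the strand of the gene and end before its start, and capitals mark the match. An element on the opposite strand reads as its reverse complement. Hspa5 (chr2:34772010-34772058, plus strand) and Calr (chr8:84847060-84847108, minus strand) did not pass the test between GC and naive cells. Hsp90b1 (chr10:86705518-86705671, minus strand), with 2 elements, was lower in GC cells, and Derl3 (chr10:75893227-75893275, plus strand) and Herpud1 (chr8:94386362-94386402, plus strand) were higher. Pdia6 (chr12:17266476-17266524, plus strand) had the smallest p of these genes between the GC lines.
Hspa5: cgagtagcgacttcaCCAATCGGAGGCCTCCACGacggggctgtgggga
Calr: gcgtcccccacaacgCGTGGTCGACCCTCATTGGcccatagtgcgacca
Hsp90b1: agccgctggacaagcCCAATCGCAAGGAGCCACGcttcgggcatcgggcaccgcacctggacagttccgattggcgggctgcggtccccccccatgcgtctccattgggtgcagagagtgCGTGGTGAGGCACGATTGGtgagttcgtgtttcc
Derl3: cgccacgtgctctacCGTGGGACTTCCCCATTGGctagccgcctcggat
Herpud1: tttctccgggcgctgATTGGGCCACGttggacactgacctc
Pdia6: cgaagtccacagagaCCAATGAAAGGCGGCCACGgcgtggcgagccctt

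Of the 11 genes with ERSE or ERSE-II, 2 were called higher in GC cells (Derl3 and Herpud1), 1 lower (Hsp90b1) and 8 were not called, with log2 fold changes between −0.80 and 0.44 and a median of 0.08. The other ERSE genes were Canx, Creld2, Dnajc3 and Syvn1. The 18 tested genes whose windows held neither element had 7 higher and 5 lower calls, a median of 0.18 and a range from −2.51 to 0.93. Over all genes tested 41.5% were called, 20.5% higher and 21.0% lower, by the rule given in the next paragraph. A motif match is a description of the sequence, and its part in these values was not tested.

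Signals are the deposited log2 values of 1 probe set per gene, the one with the highest mean over the arrays, so a difference of 1 is a 2-fold difference. Called higher or lower means a Benjamini-Hochberg adjusted p under 0.05 in limma over all 17204 genes, and fold changes are log2 differences ± standard error. The B cell gene Ms4a1 had a level of 14.35 ± 0.09 (SD, n = 4) in naive cells, 14.26 ± 0.07 (n = 3) in B1-8 cells and 14.17 ± 0.09 (n = 3) in V23 cells. Ms4a1 does not stand for the 9 tested general B cell genes, of which 5 were lower and 0 higher. Their summed unlogged signal was 112431 to 124394 on naive and 80835 to 104995 on GC arrays. Of 9 GC B cell markers, 8 were higher in GC cells. Several other measures moved with the same groups. All 11 tested neutrophil markers were higher in GC cells, with a summed unlogged signal of 2879 to 14279 on naive arrays and 38484 to 62621 on GC arrays. Of 14 tested plasma cell markers, 4 were higher and 2 lower, and their summed signal was 38454 to 45880 on naive and 54008 to 66107 on GC arrays. Prdm1, the factor that directs plasma cell differentiation, had a level of 7.26 ± 0.51 in naive cells, 7.39 ± 0.16 in B1-8 cells and 7.23 ± 0.32 in V23 cells (adjusted p = 0.897). Prdm1 was not among the 6 plasma cell markers called and does not stand for them. The lists of handling and heat shock genes (0 higher, 7 lower of 12), general B cell genes (0 higher, 5 lower of 9), macrophage genes (1 higher, 3 lower of 9) and T cell genes (0 higher, 1 lower of 9) changed as given. The Actb 3′ minus 5′ signal difference, a sign of RNA quality, was 1.27 to 1.65 on naive and 0.71 to 1.19 on GC arrays. The naive arrays also differed among themselves. The mean log2 signal of the GC B cell markers was 8.83 to 10.59 on naive and 12.36 to 12.44 on GC arrays. That of the macrophage markers was 6.41 to 8.30 and 6.24 to 7.15. The summed signal of the handling and heat shock genes was 33298 to 57738 and 32974 to 38449. The part of these measures in the results below was not tested.

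GC cells did not shift the ER genes in one direction. Against naive cells, 9 of the 38 genes were higher in the mean of both GC lines and 8 were lower. The 17 calls are 44.7% of the genes, beside the 41.5% of all genes tested (20.5% higher, 21.0% lower). The median log2 fold change was 0.10 for the ER genes and 0.06 for all genes. GC and naive arrays did not overlap for 18 of the 38 genes (47.4%), against 35.5% of all genes. The split depended on scaling. Quantile normalization gave 5 higher and 10 lower. Centring each array on its median gave 12 higher and 5 lower, and moved the median of all genes from 0.0578 to 0.157. The shares of all genes given above belong to the values as deposited. Shares under the other scalings are not given here, so these splits cannot be set against all genes. Pdia4, Dnajb9 and Ern1 were the 3 genes with more than a 2-fold difference, and all were lower in GC cells. Of the 17 calls, 7 held in each of 21 alternatives, higher for P4hb, Derl3 and Ssr1 and lower for Hsp90b1, Dnajb9, Pdia4 and Atf6. Leaving out naive replicates 2 and 4 together left 11 calls, 5 higher and 6 lower.

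**Figure D1:**
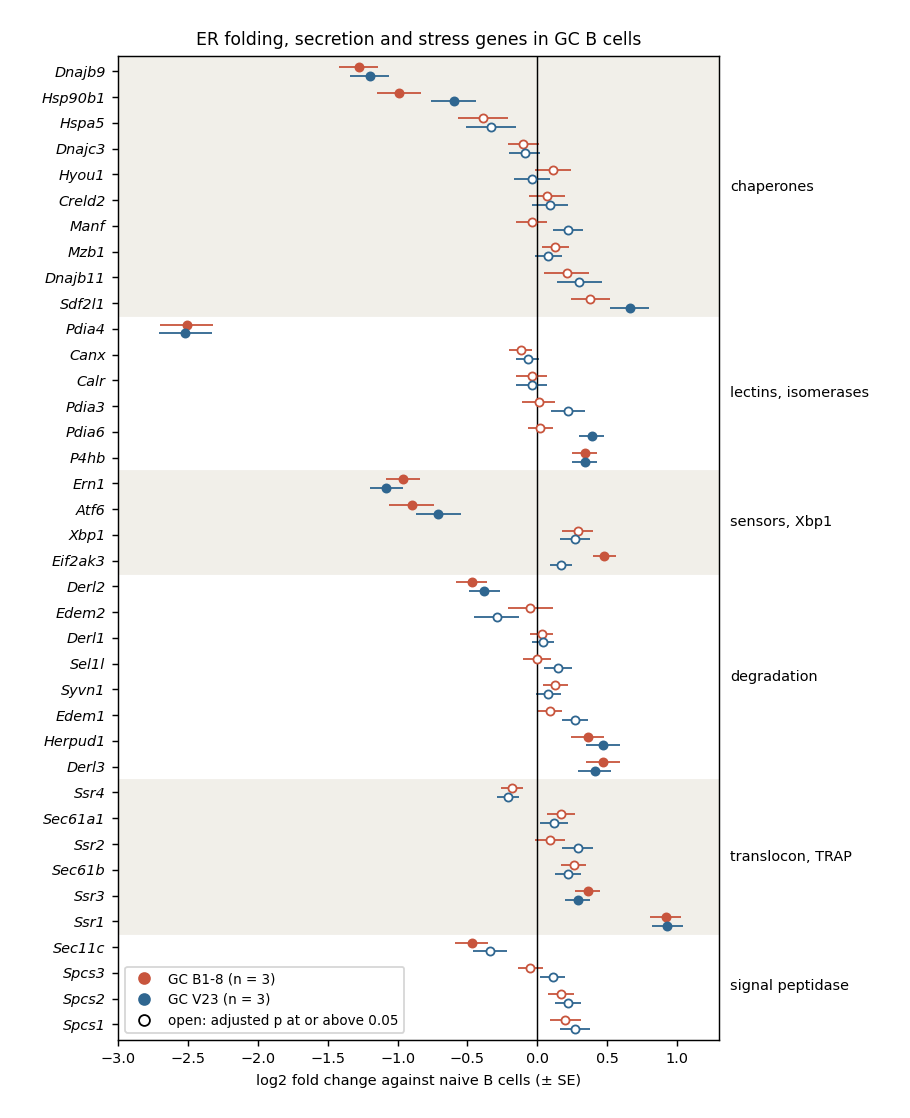
Log2 fold change of GC against naive B cells for the 38 genes, grouped by role, separately for B1-8 (red) and V23 (blue); bars are the standard error, and filled points have an adjusted p under 0.05. Pdia4 lies far to the left at −2.51 and −2.52 and Ssr1 farthest to the right at 0.92 and 0.93.

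All 4 genes of the sensor group were called, 2 lower and 2 higher, and in each the GC and naive arrays did not overlap. Among all genes tested, 41.5% were called (20.5% higher, 21.0% lower), and for 35.5% these arrays did not overlap. Ern1, which encodes IRE1α, measured 8.46, 8.58, 8.45 and 8.71 on the naive arrays, 7.35, 7.74 and 7.68 in B1-8 and 7.41, 7.51 and 7.49 in V23. It fell by 1.02 ± 0.10 on the log2 scale (adjusted p = 6.74e-05). This rests on 1 of 4 Ern1 probe sets: the other 3, which had lower signals, gave −0.10, 0.43 and 1.32 with no call, and the mean of all 4 gave 0.21 (adjusted p = 0.378). Atf6, the sensor that is cleaved in the Golgi to release a transcription factor, measured 10.44, 10.24 and 10.16 on naive arrays and 10 on naive replicate 2, 9.04, 9.50 and 9.40 in B1-8 and 9.61, 9.28 and 9.62 in V23 cells. It fell by 0.80 ± 0.13 (adjusted p = 0.0013). Another Atf6 probe set was also called lower (−0.68, adjusted p = 0.00152), and the dimmest one gave 0.03 with no call (adjusted p = 0.928).

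The other sensor, PERK, which slows translation when activated, went the other way. Its gene Eif2ak3 measured 12.04, 12.11, 12.04 and 12.01 in naive, 12.48, 12.49 and 12.62 in B1-8 and 12.21, 12.30 and 12.13 in V23 cells. It rose by 0.32 ± 0.07 (adjusted p = 0.0052), a call lost under quantile normalization (0.16, adjusted p = 0.0987) and with the mean of its probe sets (adjusted p = 0.0699). Xbp1 measured 12.77, 12.80, 12.78 and 12.45 in naive, 13.01, 13.10 and 12.86 in B1-8 and 12.99, 12.97 and 12.96 in V23 cells. Every GC array lay above every naive array, and naive replicate 4 was well below the others. The rise of 0.28 ± 0.09 (adjusted p = 0.0418) was near the threshold: it was called in 8 of 21 alternatives, and leaving out any 1 array except B1-8 replicate 3 ended the call (without naive replicate 4, 0.20, adjusted p = 0.0854). The array signal does not separate spliced from unspliced Xbp1 mRNA.

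**Figure D2:**
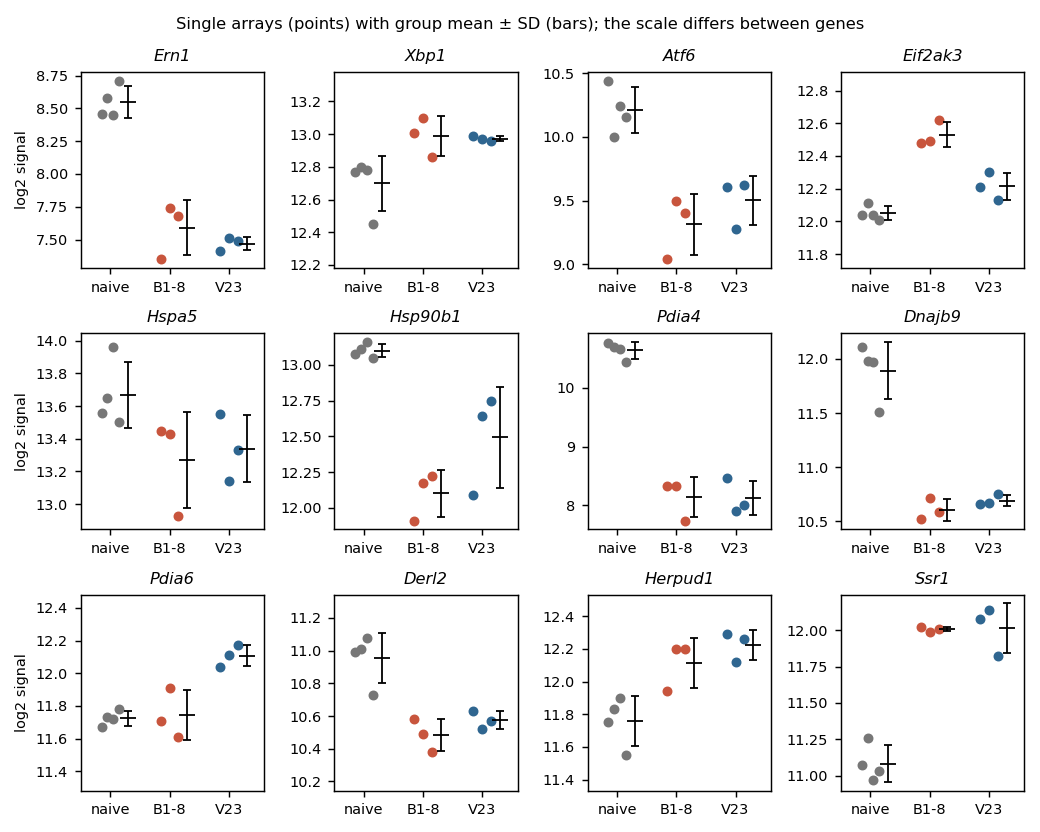
Log2 signal on each of the 10 arrays (y axis) for 12 of the genes, by group (naive n = 4, B1-8 n = 3, V23 n = 3), each point being 1 array and each bar the group mean ± SD, on a scale of its own for each gene. Pdia4, Dnajb9 and Ern1 are lower on every GC array than on every naive array, and Ssr1 is higher on every GC array.

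Among the 10 chaperones and co-chaperones, 1 was higher and 2 lower, beside 20.5% higher and 21.0% lower of all genes tested. Hspa5 encodes BiP, the HSP70 chaperone of the ER that also holds the sensors inactive. It measured 13.56, 13.65, 13.96 and 13.50 in naive, 13.45, 13.43 and 12.93 in B1-8 and 13.55, 13.14 and 13.33 in V23 cells. V23 and naive arrays overlapped, while every B1-8 array lay below every naive array, by a narrow margin (13.45 against 13.50). The difference of the GC mean from naive, −0.36 ± 0.15, did not pass the test (adjusted p = 0.0861). It did pass under quantile normalization (−0.43, adjusted p = 0.0259) and with an intensity trend (adjusted p = 0.0231). A second Hspa5 probe set was called lower at −0.52 (adjusted p = 0.00441), and another gave 0.17 with no call. Hsp90b1, the HSP90 of the ER whose promoter holds a pair of ERSE matches shown above, measured 13.08, 13.11, 13.16 and 13.05 in naive, 11.91, 12.17 and 12.22 in B1-8 and 12.09, 12.64 and 12.75 in V23 cells. It fell by 0.80 ± 0.14 (adjusted p = 0.00153), and every GC array lay below every naive one. Its other probe set gave −0.43 with no call (adjusted p = 0.0593).

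The largest chaperone difference was that of Dnajb9 (ERdj4), a J-domain partner of BiP and a known XBP1 target. It measured 12.11, 11.98, 11.97 and 11.51 in naive, 10.52, 10.72 and 10.59 in B1-8 and 10.66, 10.67 and 10.75 in V23 cells. It fell by 1.24 ± 0.12 (adjusted p = 6.02e-05), which is 2.36-fold lower. Sdf2l1, a partner of the BiP J-domain proteins, was higher: 9.94, 10.04, 10.17 and 10.03 in naive, 10.65, 10.53 and 10.08 in B1-8 and 10.67, 10.75 and 10.71 in V23 cells. It rose by 0.52 ± 0.12 (adjusted p = 0.0068), although B1-8 replicate 3 lay within the naive range, and the call was lost without naive replicates 2 and 4 (0.51, adjusted p = 0.0577). Mzb1, a B cell protein that helps assemble IgM, measured 13.33, 13.43, 13.54 and 13.40 in naive, 13.62, 13.64 and 13.38 in B1-8 and 13.53, 13.54 and 13.44 in V23 cells. Its difference of 0.10 ± 0.08 did not pass (adjusted p = 0.361), with a 95% interval from −0.09 to 0.29. The remaining 5 were not called either: Hyou1 (0.03), Dnajb11 (0.25), Dnajc3 (−0.10), Creld2 (0.08) and Manf (0.09).

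Of the 6 lectin chaperones and disulfide isomerases, 1 was lower and 1 higher, where 41.5% of all genes tested were called. Pdia4 (ERp72), a disulfide isomerase, measured 10.76, 10.70, 10.66 and 10.44 in naive, 8.33, 8.33 and 7.74 in B1-8 and 8.46, 7.91 and 8.00 in V23 cells. It fell by 2.51 ± 0.16 (adjusted p = 8.12e-06), which is 5.7-fold lower and the largest difference of the 38 genes. The lowest naive array (10.44) stood well above the highest GC array (8.46). A second probe set with a much lower signal gave −0.51 with no call (adjusted p = 0.59). P4hb, the classical protein disulfide isomerase, rose by 0.34 ± 0.07 (adjusted p = 0.00542). The lectin chaperones Calr (−0.04) and Canx (−0.09), which bind new glycoproteins, and the isomerases Pdia3 (0.11) and Pdia6 (0.20) were not called.

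Pdia6 differed between its probe sets. The kept one measured 11.67, 11.73, 11.72 and 11.78 in naive, 11.71, 11.91 and 11.61 in B1-8 and 12.04, 12.11 and 12.17 in V23 cells. Only the V23 arrays lay above the naive range throughout. The GC mean against naive gave 0.20 ± 0.08 (adjusted p = 0.0715), and passed without B1-8 replicate 3 (0.24, adjusted p = 0.0448). A dimmer probe set was called lower at −0.74 (adjusted p = 0.00403), and the mean of both gave −0.27 (adjusted p = 0.0424).

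**Figure D3:**
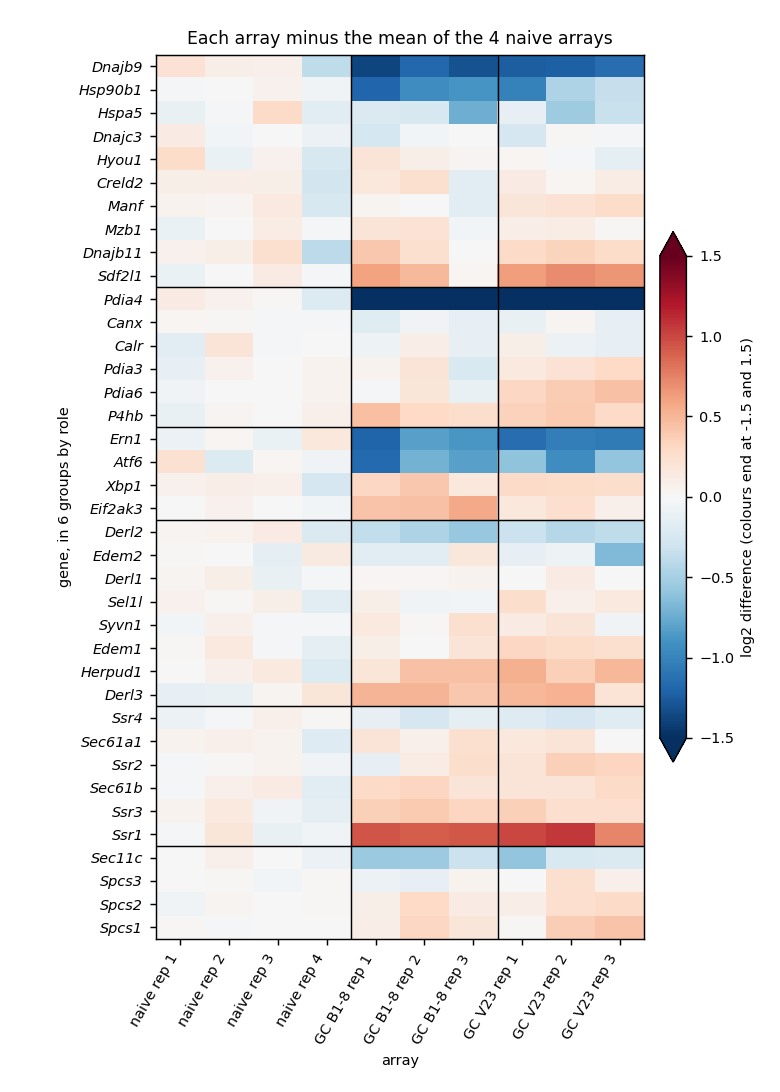
Log2 signal of each of the 38 genes on each of the 10 arrays, minus the mean of the 4 naive arrays (red higher, blue lower, colours ending at −1.5 and 1.5). Naive replicate 4 is the lowest of the 4 naive arrays for 21 genes, and Pdia4 is at the blue end on all 6 GC arrays.

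The ER-associated degradation genes had 2 higher and 1 lower of 8, beside 20.5% higher and 21.0% lower of all genes tested. Derl3, a derlin of the retrotranslocation complex that is induced in secretory cells, measured 9.19, 9.20, 9.35 and 9.49 in naive, 9.82, 9.82 and 9.71 in B1-8 and 9.80, 9.83 and 9.51 in V23 cells. All GC arrays were above all naive arrays, V23 replicate 3 by a narrow margin. It rose by 0.44 ± 0.10 (adjusted p = 0.00656). Herpud1, a scaffold of the HRD1 ligase complex with the ERSE-II match above, measured 11.75, 11.83, 11.90 and 11.55 in naive, 11.94, 12.20 and 12.20 in B1-8 and 12.29, 12.12 and 12.26 in V23 cells. It rose by 0.41 ± 0.10 (adjusted p = 0.00902), and the call was lost without naive replicates 2 and 4 (0.35, adjusted p = 0.0644). Another derlin, Derl2, went down: 10.99, 11.01, 11.08 and 10.73 in naive, 10.58, 10.49 and 10.38 in B1-8 and 10.63, 10.52 and 10.57 in V23 cells. It fell by 0.43 ± 0.09 (adjusted p = 0.00484), a call lost when arrays were centred (−0.33, adjusted p = 0.0678). The ubiquitin ligase Syvn1 (0.11), its adaptor Sel1l (0.08), the mannosidase-like Edem1 (0.18) and Edem2 (−0.17), and Derl1 (0.03) were not called.

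The translocon and the TRAP complex, which assists entry of some chains into the channel, had 3 higher and 1 lower of 6. This is a small group, and 20.5% of all genes tested were higher and 21.0% lower. Ssr1, the TRAP α subunit, measured 11.07, 11.26, 10.97 and 11.03 in naive, 12.02, 11.99 and 12.01 in B1-8 and 12.08, 12.14 and 11.82 in V23 cells. It rose by 0.93 ± 0.09 (adjusted p = 6.91e-05), 1.9-fold, with no overlap. Another Ssr1 probe set was also called higher (0.66, adjusted p = 0.0101), and 2 dimmer ones gave 0.02 and 0.30 with no call. The other TRAP subunits did not follow one course. Ssr3 rose by 0.32 ± 0.08 (adjusted p = 0.0104, lost under quantile normalization), Ssr2 gave 0.19 with no call (called higher without B1-8 replicate 1), and Ssr4 fell by 0.20 (adjusted p = 0.0455), a call that ended when any 1 array was left out. Sec61b, a channel subunit, rose by 0.24 (adjusted p = 0.0381), but was called in only 9 of 21 alternatives and lost its call without any 1 array except naive replicate 3 or B1-8 replicate 3. The channel-forming Sec61a1 gave 0.14 with no call.

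Of the 4 signal peptidase subunits, 1 was lower and 0 higher, where 41.5% of all genes tested were called. Sec11c, a catalytic subunit, fell by 0.40 ± 0.10 (adjusted p = 0.0117), a call lost when arrays were centred or without naive replicates 2 and 4. The accessory subunits Spcs1 (0.24, adjusted p = 0.0795), Spcs2 (0.19, adjusted p = 0.0686) and Spcs3 (0.03, adjusted p = 0.794) were not called. GC and naive arrays did not overlap for Spcs1 and Spcs2, as for 35.5% of all genes tested. Spcs1 and Spcs2 were both called higher without V23 replicate 1.

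The choice of probe set mattered for several genes. The 38 genes had 92 probe sets, of which 53 tested ones of 27 genes were not the kept one. Of these 53, 13 were called higher and 8 lower, and 0 were called opposite to a called kept probe set. For 8 uncalled genes another probe set was called. Edem1 was higher on a probe set of nearly equal signal (0.94, adjusted p = 0.000186), and Sel1l was higher on 2 others (0.59 and 0.75). Derl1 was also higher on 2 (0.41 and 0.56). Sec61a1 was split, with 2 probe sets higher at 0.81 each and 1 lower at −1.49. Spcs1 had 1 higher (0.37) and 1 lower (−1.11). Pdia3 was higher on a dim one (0.68, adjusted p = 0.0403), and Hspa5 and Pdia6 are given above. For 8 of the called genes another probe set was not called: Ern1, Atf6, Hsp90b1, Pdia4 and Ssr1, given above, and Eif2ak3, Xbp1 and Ssr4, whose values had the sign of the kept one. A direction other than that of the kept probe set, with no call on either, was seen for Canx (0.28 and 0.02), Dnajc3 (0.03), Edem2 (1.36) and Sel1l (−0.11 and −0.45).

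Each GC line was also compared with naive cells, and both comparisons share the 4 naive arrays. In B1-8, 6 genes were higher and 7 lower (34.2% called, beside 33.7% of all genes, with 16.4% higher and 17.3% lower). In V23, 7 were higher and 6 lower (34.2%, beside 37.9% of all genes, with 18.2% higher and 19.7% lower). For the genes with the largest differences the values were, side by side: Pdia4 gave −2.51 in B1-8 and −2.52 in V23, Dnajb9 −1.28 and −1.20, Ern1 −0.96 and −1.08, and Ssr1 0.92 and 0.93. Eif2ak3 was called in B1-8 (0.48 ± 0.08, adjusted p = 0.00204) and not in V23 (0.17, adjusted p = 0.151). Sdf2l1 was called in V23 (0.66, adjusted p = 0.00516) and not in B1-8 (0.38, adjusted p = 0.0685; difference between the lines −0.29, adjusted p = 0.706), and so was Pdia6 (0.39 ± 0.09, adjusted p = 0.011, against 0.02). Some calls within a line rested on single arrays. Leaving out 1 array ended that of P4hb (B1-8 replicate 1, or V23 replicate 2 in V23) and that of Ssr3 and Sec11c in B1-8 (each without B1-8 replicate 2, Sec11c also without B1-8 replicate 1). Herpud1 in B1-8 (lost without any 1 array except naive replicate 3 or B1-8 replicate 1) and Ssr3 in V23 (lost without any 1 except naive replicate 2) were called in 9 of 22 alternatives. Derl2 (16 of 22) and Derl3 (17 of 22) in V23 were each lost without naive replicate 1 or 2 or V23 replicate 2, Derl2 also without naive replicate 3 or V23 replicate 3 and Derl3 also without V23 replicate 1.

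Between the GC lines themselves, limma called 0 of the 38 genes, beside 4 of all 17204 genes (0.0233%). At an unadjusted p under 0.05 there were 2, Pdia6 and Eif2ak3, and the smallest adjusted p was 0.47. Pdia6 was lower in B1-8 than in V23 by 0.37 ± 0.10 (95% interval of the difference from −0.59 to −0.14, adjusted p = 0.471). Eif2ak3 was higher in B1-8 by 0.32 ± 0.09 (interval from 0.12 to 0.52, adjusted p = 0.482). Hsp90b1 had the next smallest p (−0.39, interval from −0.79 to 0.00, adjusted p = 0.651). Arrays of the lines did not overlap for 6 genes (15.8%, beside 13.7% of all genes): Hyou1 and Eif2ak3, higher in B1-8, and Sdf2l1, Manf, Pdia6 and Edem1, lower in B1-8. No interval of the 38 genes reached beyond 0.79 in size, and the median interval extended 0.27 to either side.

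Other genes of the same pathways, in 6 lists that leave out the 38, moved in both directions as well. Of 163 tested genes, 42 were higher and 44 lower in GC cells (52.8% called, median log2 fold change −0.01). This stands beside 41.5% of all genes tested (20.5% higher, 21.0% lower). With centred arrays the split of the 163 genes was 49 higher and 28 lower, for which no share of all genes is given. Among 23 redox enzymes and other foldases, 5 were higher and 6 lower (median −0.14). Of these, the disulfide isomerase Txndc5 (1.82 ± 0.11, adjusted p = 5.21e-06) and the retention factor Erp44 (1.11 ± 0.08) rose, while the BiP nucleotide exchange factor Sil1 (−1.31 ± 0.11) and Sdf2 (−1.12 ± 0.10) fell. In degradation, 8 were higher and 7 lower of 21, with the ubiquitin-conjugating enzyme Ube2j1 up by 1.06 ± 0.07 (adjusted p = 7.37e-06) and Fam8a1, a partner of HRD1, at −1.66 ± 0.10. Of 24 other transducers of the response and PERK-ATF4 targets, 7 were higher and 11 lower (median −0.19). Targets of ATF4 stood on both sides: Asns, Atf5, Trib3 and Chac1 were higher, and Atf3, Ddit3, Ppp1r15a and Sesn2 lower. Atf4 itself was not called. The other higher genes were Atf6b, Ppp1r15b and Rtcb. The other lower genes were the membrane-bound factor Creb3, the proteases Mbtps1 and Mbtps2, which cleave ATF6, and Wfs1, Dnajb2, Traf2 and Map3k5. The genes of this list given without values were named after their calls were seen. Atf5 rose by 1.00 ± 0.08, and Dnajb2 (−2.33 ± 0.18) and the kinase Map3k5 (−1.37 ± 0.07) fell.

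Asparagine synthetase, Asns, an ATF4 target, rose by 1.73 ± 0.08 (adjusted p = 2.22e-06) from 8.93 ± 0.11 (SD, n = 4) in naive cells to 10.08 ± 0.05 (n = 3) in B1-8 and 11.22 ± 0.12 (n = 3) in V23 cells. It was the 1 gene of these lists called between the lines, lower in B1-8 by 1.14 ± 0.10 (adjusted p = 0.0369). That call was kept in 8 of 22 alternatives, with an adjusted p up to 0.461, and was lost on leaving out any 1 array other than V23 replicate 2. In N-glycosylation 6 were higher and 7 lower of 29 (median −0.00), where 41.5% of all genes tested were called. Of 28 other translocation genes 5 were higher, such as the signal recognition particle subunit Srp9 (0.55 ± 0.07), and 7 lower, such as the translocation factor Sec62 (−0.82 ± 0.09) (median −0.11). ER to Golgi transport had 11 higher and 6 lower of 38 (median 0.12), with the coat GTPase Sar1b at 0.75 ± 0.07 and the cargo receptor subunit Mcfd2 at −0.62 ± 0.06.

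**Figure D4:**
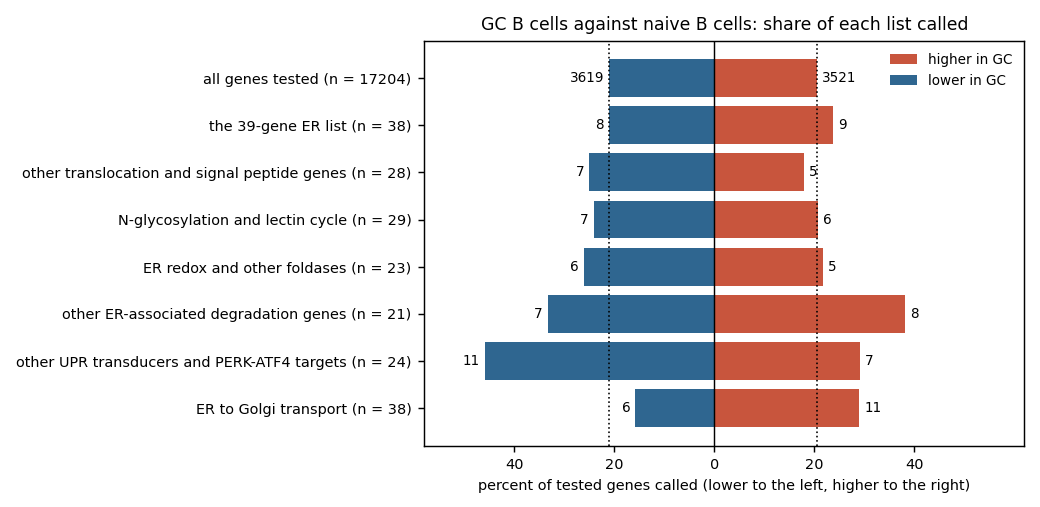
Percent of tested genes called higher (to the right) and lower (to the left) in GC against naive B cells for all genes, the ER genes and the 6 pathway lists, with the number of genes at each bar and dotted lines at the shares of all genes. The ER genes lie near the dotted lines, and the list of other response transducers and PERK-ATF4 targets has the longest bar to the left, with 11 of 24 genes lower.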

How the data were processed

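RNA of sorted splenic B cells was hybridized to Affymetrix mouse oligonucleotide arrays, 1 array per sample, and the values were used as deposited, as log2 probe set signals of the authors. The submitters' processing notes name GCRMA, without a version, but the unlogged values have the same 2% trimmed mean of 500 on each array, the form of MAS5-type scaled signals; the method that made them is not settled. Arrays give no counts, so their number (10) limits the precision: the median residual SD was 0.889 for genes below log2 6 and 0.118 above log2 10.

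Of 45101 probe sets, 34958 carry 1 gene symbol, 932 several and 9211 none. For each of 18194 genes the brightest probe set of that symbol alone, averaged over the arrays, represented the gene. The test covered those above log2 4 on 3 or more arrays. A model of the 3 group means was fitted with limma 3.58.1 in R 4.3.3 (two-sided, 7 residual degrees of freedom, prior 1.46) and adjusted by the Benjamini-Hochberg method within each comparison. The fit was tested on simulated data in which 200 of 17204 genes were changed by a known amount. For the GC mean against naive it called 23.0% of 1.5-fold, 53.5% of 2-fold and 75.0% of 4-fold changes. Between the lines it called 0.0%, 44.0% and 68.5%. A gene that was not called may therefore still differ. The simulation changed fewer genes than were called here against naive, so its shares need not hold for that comparison. Probe set tests were adjusted over all probe sets tested.

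The members and lists were chosen with earlier results of these data known. Values on every array are given for the sensor genes, Hspa5, Hsp90b1, Mzb1 and Derl3, the 10 called members with the largest fold change, and the 3 members with the smallest p between the lines; from other lists, up to 4 genes with the smallest p may be named. Other probe sets are named where their direction or call differs from that of the gene; calls of genes are those of the fit over genes. Alternatives covered the filter, probe set choice, scaling, variance moderation, array weights, samples in the fit, replicate numbers and each array left out. Prdm1 was named outside the rule of the smallest p. Figures were drawn with matplotlib 3.10.9.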

Additional observations from a re-analysis of the deposited data

Results flagged for a closer look

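Among 39 groups of 4 naive arrays examined for a sample far from the others, 3 stood out by Dixon's criterion, where chance gives about 1 in 20. All 3 were naive replicate 4. Xbp1 was at 12.45 there, with the other naive arrays between 12.77 and 12.80. Creld2 was at 9.92, with the others between 10.28 and 10.30. Sec61a1 was at 11.50, with the others between 11.75 and 11.77.

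Asns differed between the GC lines: B1-8 minus V23 was −1.14 ± 0.10 on the log2 scale (limma, adjusted p = 0.0369). It was higher on all 3 V23 arrays than on the 3 B1-8 arrays. The call held in 8 of 22 alternatives, with an adjusted p up to 0.461. Without naive arrays of each line, a response to the GC state cannot be compared between them.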

How the results depend on the processing

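Against the 17 genes called for the mean of both GC lines, leaving out naive replicates 2 and 4 gave 11. Against the 13 called in V23, moderation with an intensity trend gave 21. With the mean of all probe sets, Ern1 went from −1.02 to 0.21 and Pdia6 from 0.20 to −0.27; the separate probe sets of both genes differ in direction. Leaving out 1 array at a time gave 14 to 17 calls for the GC mean, 10 to 13 for B1-8, 9 (without V23 replicate 2) to 13 for V23, 0 between the lines, and 73 to 83 of the pathway genes, against 86. Other alternatives kept each count within 1.5 times. The shares of all genes called under the alternatives are not given here. Same-numbered arrays did not deviate together (correlations from −0.019 to 0.072), so the numbers do not pair the samples; the replicate block gave 14, 10, 12, 0 and 73 calls in the same order.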
